A study of Oryza sativa Japonica Group with 12 samples.

Results

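Messenger RNA of 9 rice chaperone genes, 8 encoding small heat shock proteins and 1 encoding HSP101, was followed in whole seedlings under osmotic stress. The 9 genes were taken by their locus numbers from a table of 29358 loci, not by any measured value, and all 9 passed the filter on low values. They were HSP16.9A (LOC_Os01g04370), HSP16.9B (LOC_Os01g04380), HSP17.4 (LOC_Os03g16020), HSP18.1 (LOC_Os03g16030), HSP17.7 (LOC_Os03g16040), HSP26.7 (LOC_Os03g14180), HSP24.1 (LOC_Os02g52150), HSP23.2 (LOC_Os04g36750) and HSP101 (LOC_Os05g44340). Names were matched to a reference gene table, in which HSP18.1 also carries the name OSHSP18.0 and HSP101 the name CLPB1.

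The samples were 5-day-old seedlings of rice (Oryza sativa, Japonica group), in 4 groups of 3 libraries each. The groups were the line raf-b2/3 after 6 h in 800 mM mannitol, raf-b2/3 without mannitol, the wild type (WT, given as WT/NIP) after the same mannitol treatment, and WT without it. Mannitol is a sugar alcohol that draws water out of plant cells. The study asked how B2 and B3 RAF protein kinases shape gene expression under this stress. One label gives raf-b2/3 as a knockdown and the protocols give it as a mutant. The labels name neither the targeted loci nor the number of lines, so no targeted gene could be checked here. Nothing in them tells if the 3 libraries of each group stem from separate cultures. The p-values thus rest on differences among libraries that could be technical in origin.

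Values are FPKM, that is, fragment counts divided by gene length and by library depth, and 37536545 to 39793707 recovered fragments per library lay behind them. Green tissue markers (RBCS, RCA, CAB1R and CAB2R) summed to 11690 to 13850 FPKM in raf-b2/3 mannitol, 19970 to 22310 in raf-b2/3 control, 9997 to 12100 in WT mannitol and 19270 to 21380 in WT control. Root markers (LSI1, LSI2 and YSL15) summed to 18.04 to 23.7 FPKM in raf-b2/3 mannitol, 385 to 461 in raf-b2/3 control, 38.8 to 40.5 in WT mannitol and 75.4 to 364 in WT control, and WT control library 2 gave the 75.4. That library and raf-b2/3 mannitol library 3 stood apart from the other libraries of their groups in an earlier analysis of these data. Results are given without them where a call reported here changed.

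Small heat shock proteins are chaperones that hold unfolding proteins without using ATP, and plants make separate classes of them for the cytosol, plastids, mitochondria and the endoplasmic reticulum. HSP101 is a ring-shaped ATPase of the ClpB family that pulls proteins back out of aggregates, working with HSP70 and small heat shock proteins. Heat shock transcription factors (HSFs) regulate these genes, and in plants they respond to heat, to drying and salt stress and to seed maturation.

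**Figure D1:**
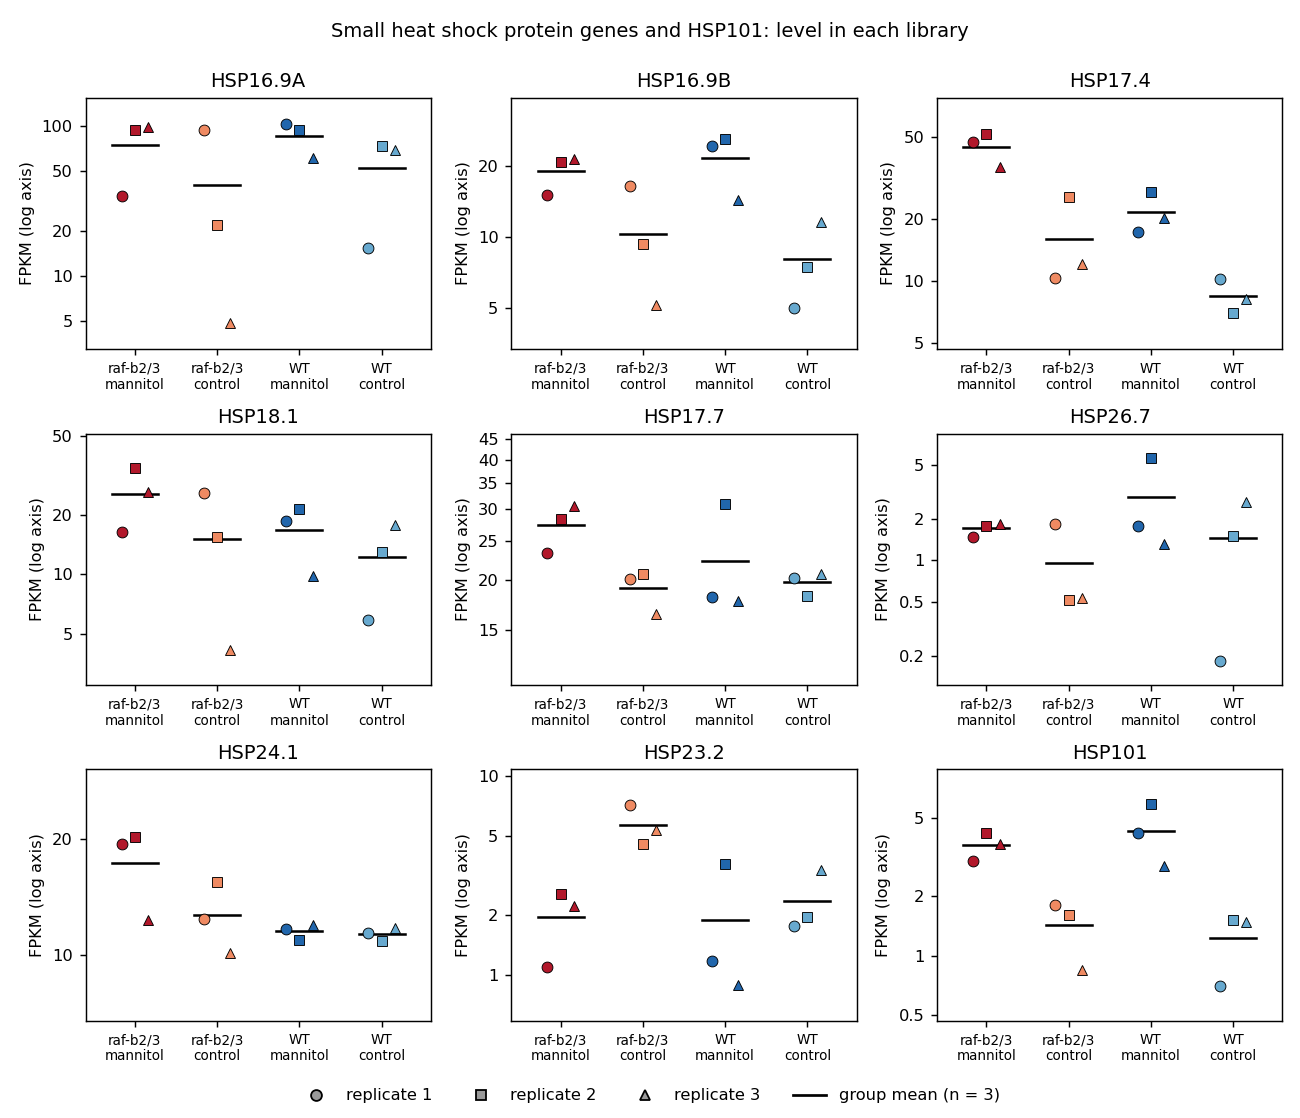
FPKM of each gene (y axis, logarithmic) in the 12 libraries, by group (x axis); symbols give the replicate number and bars the mean of 3 libraries. HSP101 and HSP17.4 stood higher in all mannitol libraries than in the control libraries of the same genotype, while HSP16.9A ranged from 4.88 to 94.0 FPKM within the raf-b2/3 control group.

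After mannitol, messages of HSP101 and of the cytosolic proteins HSP17.4 and HSP16.9B rose in both genotypes. In raf-b2/3 the cytosolic HSP17.7 and the mitochondrial HSP24.1 rose as well, and HSP23.2 of the endoplasmic reticulum fell. HSP16.9A, HSP18.1 and the plastid gene HSP26.7 passed the test in neither genotype. A gene counted as risen or fallen at a Benjamini-Hochberg adjusted p under 0.05 in limma-trend over all 22371 loci tested. In raf-b2/3, 6 of the 9 genes were called in either direction, against 62.2% of all tested loci, and in WT 3 of 9, against 63.3%. In raf-b2/3, 5 of 9 (55.6%) rose, against 35.6% of all tested loci, and 1 of 9 (11.1%) fell, against 26.67%. The share that rose lay on the other side of the background under other scalings, at 2 of 9 (22.2%) against 31.0% of all tested loci with median-of-ratios scaling and 2 of 9 against 29.9% with quantile normalization. The count that rose was 2 without raf-b2/3 mannitol library 2 or raf-b2/3 control library 3, 3 without raf-b2/3 mannitol library 3, and 4 to 6 without any other single library. In WT, 3 of 9 (33.3%) rose, against 37.7% of all tested loci. In WT 0 fell by limma-trend or limma-voom, against 25.5% of all tested loci by limma-trend. At an unadjusted p under 0.05, 0 fell as well, against 27.1% of all tested loci. The median log2 change of the 9 genes was 0.95 in raf-b2/3 and 0.66 in WT, while that of all tested loci was 0.07 in raf-b2/3 and 0.09 in WT. These medians are the values of HSP101 in raf-b2/3 and of HSP26.7 in WT, and HSP26.7 did not pass there (limma adjusted p 0.20). The difference between the medians was not tested. Changes are on the log2(FPKM + 1) scale, which understates those of genes with low values. In whole seedlings, fewer cells of a type and less RNA per cell cannot be told apart. The marker sums of green tissue and root moved with mannitol too. Of the green tissue markers, RBCS and RCA were called lower in both genotypes by limma, and CAB1R and CAB2R were called in neither. As ratios of mean FPKM, mannitol over control, CAB1R gave 1.19 in raf-b2/3 and 1.08 in WT. CAB2R gave 0.983 in raf-b2/3 and 0.841 in WT. The part of tissue make-up in the changes of the 9 genes was not tested.

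HSP101, the disaggregating ATPase, was low without stress and rose in both genotypes. In raf-b2/3 it stood at 3.02, 4.18 and 3.68 FPKM with mannitol and at 1.82, 1.61 and 0.846 without it. In WT it stood at 4.198, 5.85 and 2.85 FPKM with mannitol and at 0.705, 1.51 and 1.48 without it. Every mannitol library lay above every control library of its genotype. Mean FPKM was 2.55 times as high after mannitol in raf-b2/3 (3.63 ± 0.582 against 1.42 ± 0.512, SD, n = 3) and 3.48 times as high in WT (4.30 ± 1.5 against 1.23 ± 0.458). By limma the log2 change was 0.95 (SE 0.23, adjusted p 0.0031) in raf-b2/3 and 1.23 (SE 0.23, adjusted p 4.8e-04) in WT.

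Of the 5 cytosolic small heat shock proteins, all of class I, HSP17.4 gave the clearest response. It stood at 47.2, 51.3 and 35.6 FPKM in raf-b2/3 with mannitol and at 10.4, 25.6 and 12.1 without it. In WT the values were 17.36, 27.1 and 20.3 FPKM with mannitol and 10.2, 7.05 and 8.21 without it. The mannitol and control libraries did not overlap within either genotype. Mean FPKM was 2.79 times as high after mannitol in raf-b2/3 and 2.54 times as high in WT, with limma log2 changes of 1.51 (SE 0.27, adjusted p 4.4e-04) in raf-b2/3 and 1.24 (SE 0.27, adjusted p 0.0017) in WT.

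HSP16.9B, another class I protein, stood at 15.1, 20.9 and 21.5 FPKM in raf-b2/3 with mannitol and at 16.5, 9.29 and 5.13 without it. WT libraries gave 24.4, 26.18 and 14.4 FPKM with mannitol and at 4.99, 7.44 and 11.6 without it. The groups were separate in WT, whereas in raf-b2/3 control library 1 lay above mannitol library 1. The limma log2 change was 0.95 (SE 0.36, adjusted p 0.036) in raf-b2/3 and 1.35 (SE 0.36, adjusted p 0.0055) in WT. The raf-b2/3 call ended without raf-b2/3 mannitol library 2 (adjusted p 0.090) or 3 (0.097), or raf-b2/3 control library 2 (0.072) or 3 (0.16). The change was log2 0.57 without raf-b2/3 control library 3, and the call also ended without both libraries that stood apart (adjusted p 0.10). Scaling mattered as well, since the adjusted p was 0.051 under median-of-ratios scaling and 0.064 under quantile normalization.

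HSP17.7, also of class I, stood at 23.3, 28.5 and 30.6 FPKM in raf-b2/3 with mannitol and at 20.1, 20.7 and 16.4 without it. Its WT values were 18.09, 31.0 and 17.69 FPKM with mannitol and at 20.2, 18.2 and 20.7 without it. The raf-b2/3 groups were separate and the WT groups overlapped, with WT mannitol library 2 alone above the control range. The limma log2 change was 0.50 (SE 0.18, adjusted p 0.028) in raf-b2/3 and 0.12 (SE 0.18, adjusted p 0.57) in WT. In raf-b2/3 the call ended without mannitol library 2 (adjusted p 0.072), mannitol library 3 (0.095), control library 3 (0.11) or both libraries that stood apart (0.098), and under median-of-ratios scaling (0.050, just above the threshold) or quantile normalization (0.084).

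HSP16.9A, the class I gene with the highest mean FPKM of the 9 in each group, was too uneven within groups for a call. It stood at 33.9, 93.3 and 98.0 FPKM in raf-b2/3 with mannitol and at 94.0, 21.7 and 4.88 without it. WT seedlings gave 103, 93.6 and 61.0 FPKM with mannitol and at 15.4, 73.6 and 69.1 without it. The groups overlapped in both genotypes. The limma log2 change was 1.56 in raf-b2/3 (95% interval -0.28 to 3.40, adjusted p 0.13) and 0.94 in WT (95% interval -0.90 to 2.78, adjusted p 0.35). Without raf-b2/3 control library 1, the raf-b2/3 change was log2 2.57 with adjusted p 0.0095.

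HSP18.1, the remaining class I gene, stood at 16.4, 34.4 and 26.1 FPKM in raf-b2/3 with mannitol and at 25.7, 15.4 and 4.13 without it. In WT it stood at 18.7, 21.5 and 9.80 FPKM with mannitol and at 5.85, 13.02 and 17.67 without it. Mannitol and control libraries overlapped in both genotypes. The limma log2 change was 0.96 (SE 0.54, adjusted p 0.14) in raf-b2/3 and 0.47 (SE 0.54, adjusted p 0.47) in WT. Without raf-b2/3 control library 1 the raf-b2/3 change was log2 1.48 with adjusted p 0.033.

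Among the small heat shock proteins of organelles, HSP23.2, which resides in the endoplasmic reticulum, was the one gene of the 9 that fell. It stood at 1.102, 2.57 and 2.22 FPKM in raf-b2/3 with mannitol and at 7.18, 4.56 and 5.36 without it. Levels in WT were 1.18, 3.63 and 0.889 FPKM with mannitol and at 1.78, 1.95 and 3.37 without it. Every mannitol library of raf-b2/3 lay below every raf-b2/3 control library, while the WT groups overlapped. The mean in raf-b2/3 mannitol was 0.345 of that in raf-b2/3 control, with a limma log2 change of -1.19 (SE 0.32, adjusted p 0.0058). In WT the log2 change was -0.30 (SE 0.32, adjusted p 0.42), and without WT mannitol library 2 it was -0.70 with adjusted p 0.036.

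HSP24.1, a mitochondrial small heat shock protein, stood at 19.4, 20.2 and 12.3 FPKM in raf-b2/3 with mannitol and at 12.4, 15.5 and 10.1 without it. WT values were 11.7, 10.9 and 11.96 FPKM with mannitol and at 11.4, 10.9 and 11.7 without it. The 6 WT libraries lay close together, and raf-b2/3 mannitol libraries 1 and 2 lay above all other libraries. The limma log2 change was 0.41 (SE 0.17, adjusted p 0.047) in raf-b2/3 and 0.02 (SE 0.17, adjusted p 0.92) in WT. The raf-b2/3 call was fragile. It ended without raf-b2/3 mannitol library 1 (adjusted p 0.16) or 2 (0.18), without raf-b2/3 control library 1 (0.093) or 3 (0.19), without any 1 of the 6 WT libraries (adjusted p from 0.051 to 0.059), and with no filter (0.063), under median-of-ratios scaling (0.081) or quantile normalization (0.12). Without raf-b2/3 mannitol library 3 the change was log2 0.63 with adjusted p 0.0017.

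HSP26.7, which resides in plastids, stood at 1.49, 1.79 and 1.86 FPKM in raf-b2/3 with mannitol and at 1.84, 0.514 and 0.528 without it. WT libraries had 1.78, 5.62 and 1.32 FPKM with mannitol and at 0.185, 1.51 and 2.66 without it. The groups overlapped in both genotypes, and the lowest value rested on 9 fragments, with an exact Poisson 95% interval of 0.0848 to 0.352 FPKM that covers counting error only. The limma log2 change was 0.53 (SE 0.43, adjusted p 0.30) in raf-b2/3 and 0.66 (SE 0.43, adjusted p 0.20) in WT.

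**Figure D2:**
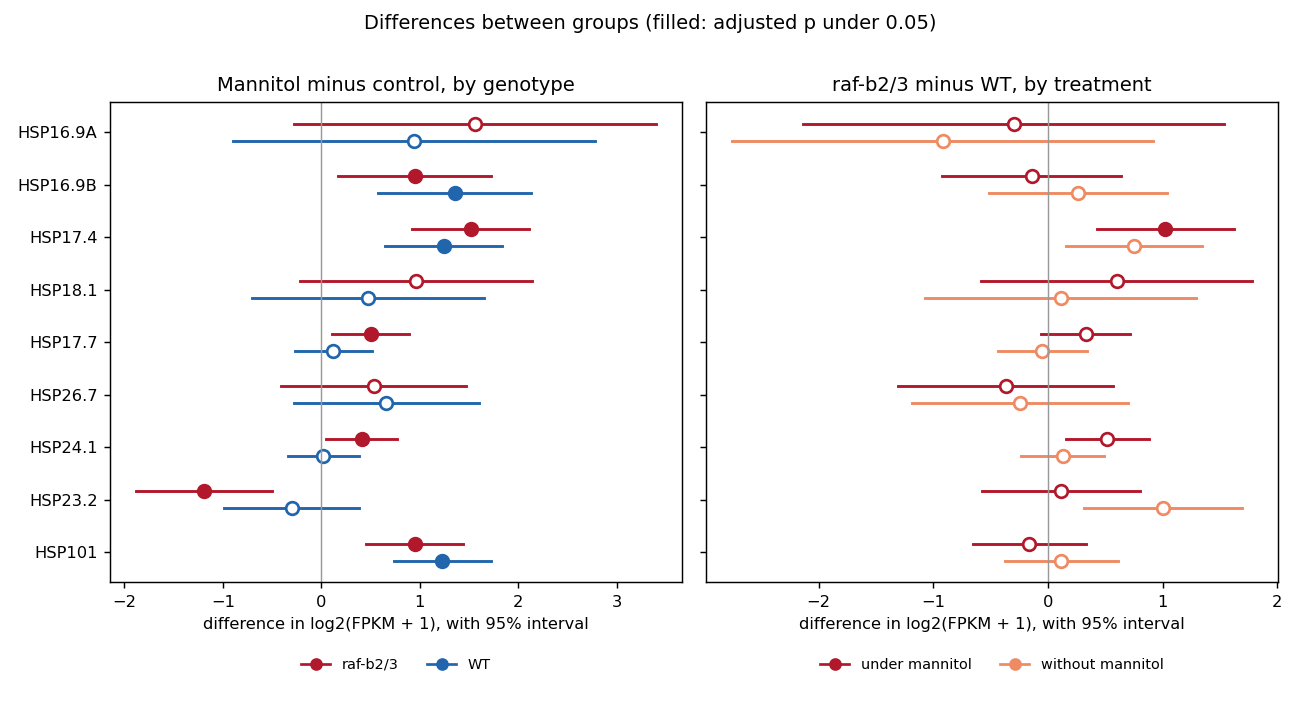
Differences between group means in log2(FPKM + 1) (x axis) for each gene (y axis), with 95% intervals from limma; filled points have an adjusted p under 0.05. The left panel gives mannitol minus control in raf-b2/3 and WT, and the right panel raf-b2/3 minus WT under and without mannitol. In the right panel 1 point is filled, HSP17.4 under mannitol at 1.02.

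Under mannitol, raf-b2/3 had more HSP17.4 message than WT. The 3 raf-b2/3 mannitol libraries (35.6 to 51.3 FPKM) all lay above the 3 WT mannitol libraries (17.36 to 27.1 FPKM), and the mean was 2.07 times as high (44.7 ± 8.14 against 21.6 ± 5.01, SD, n = 3). The limma log2 difference was 1.02 (SE 0.27, adjusted p 0.024). The call ended without raf-b2/3 mannitol library 1 (log2 0.98, adjusted p 0.069) or 2 (0.92, 0.091), or without WT mannitol library 1 (0.89, 0.10) or 3 (0.99, 0.067). HSP17.4 was the 1 of 9 genes called, against 15.8% of all tested loci in either direction, and the 1 of 9 (11.1%) called higher, against 8.37% of all tested loci. By limma-trend or limma-voom 0 of 9 were called lower, against 7.47% of all tested loci by limma-trend. At an unadjusted p under 0.05, 0 of 9 were lower, against 14.4% of all tested loci. The raf-b2/3 and WT libraries also did not overlap for HSP24.1, at 12.3 to 20.2 FPKM in raf-b2/3 and 10.9 to 11.96 in WT. Its log2 difference was 0.52 (SE 0.17, adjusted p 0.0535), just outside the threshold. It passed under limma-voom (adjusted p 0.0489), without raf-b2/3 mannitol library 3 (log2 0.73, adjusted p 0.0034), and without raf-b2/3 control library 2 (adjusted p 0.036) or 3 (0.042). HSP24.1 also passed without both libraries that stood apart (log2 0.73, limma adjusted p 0.0038). For HSP17.7 the log2 difference was 0.33 (SE 0.18, adjusted p 0.25), and 0.58 with adjusted p 0.014 without WT mannitol library 2. The other 6 genes had log2 differences of -0.37 to 0.60. HSP101 differed by log2 -0.16 (95% interval -0.66 to 0.33) and HSP16.9B by -0.14 (-0.92 to 0.64). These intervals do not show the genotypes to be equal.

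Without mannitol, 0 of the 9 genes differed between raf-b2/3 and WT by limma-trend or limma-voom, against 1.81% of all tested loci. At an unadjusted p under 0.05, 2 were higher in raf-b2/3 and 0 were lower, while 9.96% of all tested loci were higher and 4.99% lower at that threshold. These were HSP23.2, with log2 1.005 (SE 0.32, unadjusted p 0.0079, adjusted p 0.15), and HSP17.4, with log2 0.75 (SE 0.27, unadjusted p 0.018, adjusted p 0.22). In both, the raf-b2/3 control libraries all lay above the WT control libraries, at 4.56 to 7.18 against 1.78 to 3.37 FPKM for HSP23.2 and at 10.4 to 25.6 against 7.05 to 10.2 FPKM for HSP17.4. Thus HSP17.4 ordered the 4 group means as raf-b2/3 mannitol (44.7 FPKM), WT mannitol (21.6), raf-b2/3 control (16.01) and WT control (8.48), and the middle pair of groups overlapped.

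Whether the mannitol response itself differed between genotypes was tested as the interaction, the raf-b2/3 log2 change minus the WT log2 change. For 0 of the 9 genes did it pass by limma-trend or limma-voom, against 2.98% of all tested loci by limma-trend. At an unadjusted p under 0.05 it passed for 0 of the 9, while 6.99% of all tested loci were higher and 9.32% lower. For HSP17.7, HSP24.1 and HSP23.2, which passed in raf-b2/3 and not in WT, a difference in response was therefore not shown. The interaction of HSP23.2 was -0.89 (95% interval -1.87 to 0.08, adjusted p 0.35), that of HSP17.7 was 0.38 (-0.17 to 0.93) and that of HSP24.1 was 0.39 (-0.12 to 0.90). For HSP101 it was -0.28 (-0.98 to 0.42), for HSP17.4 0.27 (-0.57 to 1.11) and for HSP16.9B -0.41 (-1.51 to 0.70). The interval was widest for HSP16.9A, at 0.62 (-1.98 to 3.22).

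Libraries of one group differed widely in these genes. The within-group SD of log2(FPKM + 1), estimated over the 12 libraries, was 1.27 for HSP16.9A, 0.81 for HSP18.1, 0.64 for HSP26.7, 0.53 for HSP16.9B, 0.46 for HSP23.2, 0.40 for HSP17.4, 0.32 for HSP101, 0.26 for HSP17.7 and 0.24 for HSP24.1. The median over all 22371 tested loci was 0.127. All 9 genes lay above that median, and 7 lay above 90% of tested loci. HSP16.9A exceeded 99.92% of them and 99.95% of the 1883 loci of similar mean level. For scale, in raf-b2/3 control, HSP16.9A had 3048 fragments in library 1 (94.0 FPKM, exact Poisson 95% interval 90.7 to 97.4) and 161 in library 3 (4.88 FPKM, 4.16 to 5.69), a ratio of 19.3, and these intervals cover counting error only.

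**Figure D3:**
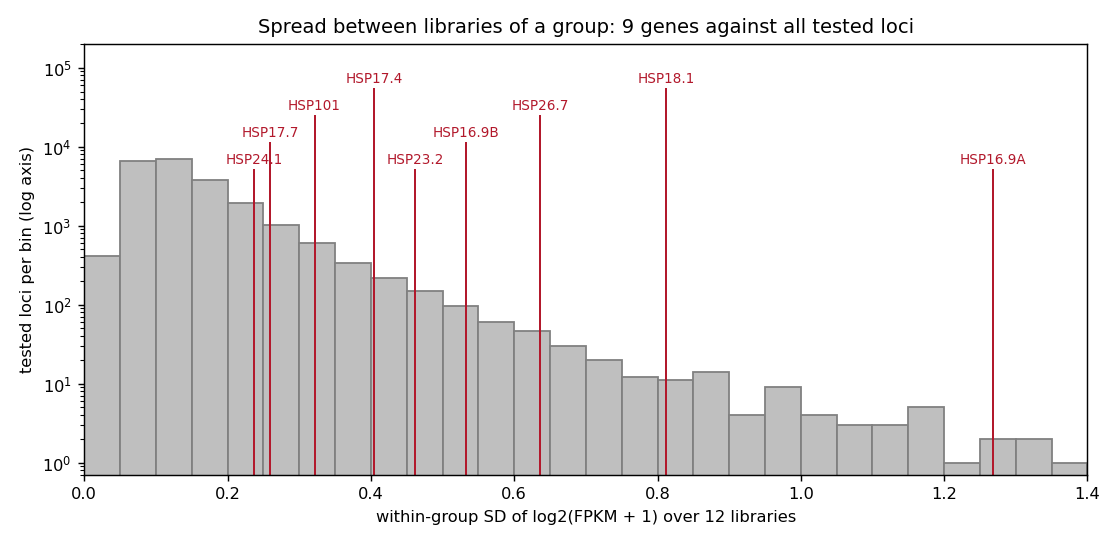
Histogram of the within-group SD of log2(FPKM + 1) (x axis) over the 22371 tested loci, with the number of loci per bin on a logarithmic y axis; red lines mark the 9 genes. HSP16.9A (1.27) and HSP18.1 (0.81) lie in the sparse right tail.

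Some libraries were high or low for most of the 9 genes. In raf-b2/3 control, library 1 lay above its group mean for 7 of the 9 genes library 2 for 5 and library 3 for 0 of 9, with mean deviations of 0.51, 0.11 and -0.62 log2 units. In raf-b2/3 mannitol, library 1 was high for 2 of 9, library 2 for 9 and library 3 for 7. In WT mannitol, libraries 1, 2 and 3 were high for 5, 8 and 1 of 9, and in WT control for 3, 4 and 8 of 9. The 5 other small heat shock protein genes tested had mean deviations of 0.47, 0.09 and -0.55 in raf-b2/3 control libraries 1, 2 and 3, and of -0.28, 0.16 and 0.12 in raf-b2/3 mannitol. In WT mannitol they deviated by 0.06, 0.28 and -0.34, and in WT control by -0.33, 0.18 and 0.15. The spread of these 5 genes within raf-b2/3 control was unequal. HSP16.9C, which lies next to HSP16.9A, ranged there from 0.523 to 20.17 FPKM. HSP18.0 ranged from 23.96 to 45.67 FPKM, HSP17.9A from 13.66 to 27.35, HSP18.6 from 1.009 to 1.545 and HSP26.2 from 5.769 to 6.506. The mean deviation thus does not show that all 5 deviated alike. The median deviation of all tested loci stayed between -0.02 and 0.03 in the 12 libraries, and the mean deviation of the 13 tested heat shock factor genes between -0.12 and 0.17. In raf-b2/3 control, where these genes were most uneven, heat shock factors deviated by -0.10, 0.17 and -0.08 in libraries 1, 2 and 3. The root marker sum in these libraries was 404, 385 and 461 FPKM, and the green marker sum 20620, 19970 and 22310 FPKM. The part of tissue make-up in these deviations was not tested.

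**Figure D4:**
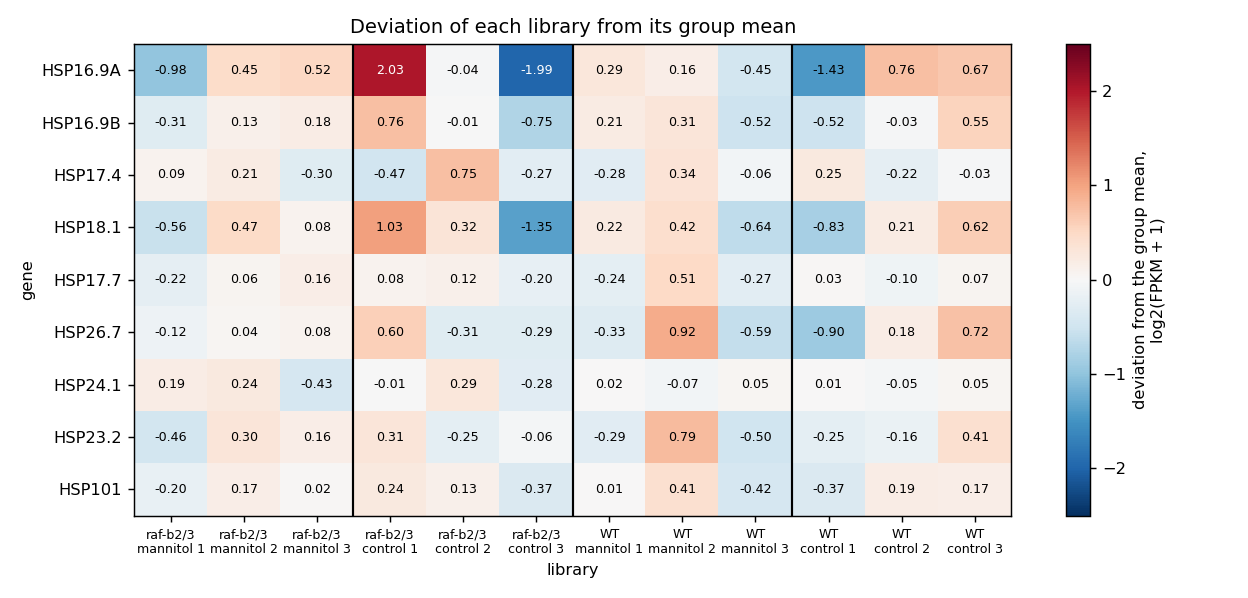
Deviation of each library from the mean of its group in log2(FPKM + 1), as colour and number, for the 9 genes (rows) and 12 libraries (columns, black lines between groups). HSP16.9A, HSP16.9B and HSP18.1 share their sign except in raf-b2/3 control library 2 and WT control library 2, while HSP17.4 and HSP24.1 do not follow them.

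HSP16.9A, HSP16.9B, HSP18.1 and HSP101 deviated together across the 12 libraries. Pairs of genes were compared by the correlation of their deviations from the group mean, with exact tests over 1296 permutations within groups and Benjamini-Hochberg adjustment over 36 pairs. The pair HSP16.9B and HSP18.1 gave Pearson's r 0.959 (exact permutation p 0.00154, adjusted p 0.0278) and Spearman's rho 0.902 (exact permutation p 0.00694, adjusted p 0.0625). Without the 2 libraries farthest from the median of HSP16.9B, r was 0.929. HSP18.1 and HSP101, whose loci are on different chromosomes, gave r 0.898 (exact permutation p 0.00154, adjusted p 0.0278) and rho 0.839 (exact permutation p 0.0054, adjusted p 0.0625), and r 0.852 without the 2 farthest libraries. HSP26.7 and HSP23.2 gave r 0.838 (exact permutation p 0.00231, adjusted p 0.0278) and rho 0.825 (exact permutation p 0.00154, adjusted p 0.0556), and r 0.814 without the 2 farthest. In all, 7 of 36 pairs passed for r and 0 for rho. Pairs of other loci were not put to this test, so these counts do not tell whether joint deviation is particular to these genes. With HSP16.9A, HSP16.9B, HSP18.1, HSP26.7 and HSP101, HSP17.4 gave r between -0.279 and 0.111 (exact permutation adjusted p of 0.849 to 0.998) and HSP24.1 between -0.118 and 0.253 (0.806 to 0.898). This grouping of genes was chosen after its values were seen. The 12 deviations share 4 group means, so they carry less information than 12 free values.

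Some of these genes are close neighbours and near copies. In the reference gene table HSP16.9A lies next to HSP16.9B and to HSP16.9C on chromosome 1, and HSP17.4, HSP18.1 and HSP17.7 lie side by side on chromosome 3. How the authors' counting treated reads that fit several copies is not given in the sources used here, so the levels of these neighbours are uncertain. The part of shared reads in the results was not tested. Among these neighbours, the deviations of HSP16.9A and HSP16.9B gave r 0.911 (exact permutation adjusted p 0.0317) and rho 0.783 (adjusted p 0.12), with r 0.812 without the 2 farthest libraries. HSP18.1 and HSP17.7 gave r 0.522 (exact permutation adjusted p 0.147) and rho 0.538 (adjusted p 0.126). HSP17.4 gave r 0.398 with HSP17.7 (exact permutation adjusted p 0.397; rho 0.224, adjusted p 0.726) and r -0.002 with HSP18.1 (adjusted p 0.998; rho 0.014, adjusted p 0.973).

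The genes whose levels over the 12 libraries most resembled the mean profile of the 9 were LOC_Os03g50290 (Pearson's r 0.93) and LOC_Os02g12440 (0.92), for which the sources used here give no name. The levels carry the mannitol effect, so r is a description. Other small heat shock protein genes among the 100 most similar loci were HSP18.0 (LOC_Os01g08860) at rank 5 with r 0.90 and HSP17.9A (LOC_Os03g15960) at rank 7 with r 0.89. Among the 9 genes themselves, r with their mean profile was highest for HSP18.1 (0.92) and HSP16.9B (0.91), and lowest for HSP24.1 (0.51) and HSP23.2 (0.00). Each of the 9 is part of that profile, which raises its r, so these values do not compare with those of other loci.

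Of the other small heat shock protein genes with a name in the reference, 5 were tested, and 4 rose in raf-b2/3, against 35.6% of all tested loci, and 4 in WT, against 37.7%. HSP16.9C passed in neither, with log2 1.59 (SE 0.80, limma adjusted p 0.10) in raf-b2/3 and 0.63 (SE 0.80, adjusted p 0.51) in WT. Among the 4 that passed in raf-b2/3, the largest rise on the log2(FPKM + 1) scale was that of HSP26.2 (LOC_Os06g14240), by log2 1.49 (SE 0.09, limma adjusted p 9.9e-08), while as a ratio of mean FPKM HSP18.6 (4.0) exceeded HSP26.2 (3.12). In WT it was that of HSP18.6 (LOC_Os02g54140), which stood at 10.3, 17.1 and 7.75 FPKM with mannitol and at 1.42, 0.598 and 0.521 without it (log2 2.75, SE 0.24, limma adjusted p 9.4e-07). Under mannitol these genes differed between genotypes in opposite directions, HSP26.2 being higher in raf-b2/3 by log2 0.62 (adjusted p 8.0e-04) and HSP18.6 lower by log2 -0.97 (SE 0.24, adjusted p 0.016). HSP18.6 stood at 4.97, 4.84 and 5.87 FPKM in raf-b2/3 mannitol. Its genotype difference lost its call without raf-b2/3 mannitol library 2 (adjusted p 0.058) or WT mannitol library 2 (0.057). The same call ended with a pseudocount of 0.1 (log2 -1.08, limma adjusted p 0.052). The interaction passed for 0 of the 5 by limma, with adjusted p 0.059 for HSP18.6 and 0.071 for HSP26.2. It passed for HSP18.6 without WT mannitol library 3 (adjusted p 0.030) or WT control library 1 (0.034). For HSP26.2 it passed without raf-b2/3 mannitol library 3 (0.030) or without both libraries that stood apart (0.028).

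Of the related chaperones with a name in the reference, 5 were tested (2 of the CLPB family, 1 HSP70 and 2 HSP90), and all 5 rose in both genotypes, against 35.6% of all tested loci in raf-b2/3 and 37.7% in WT. CLPB-M, the mitochondrial relative of HSP101, rose by log2 1.11 in raf-b2/3 and 0.90 in WT (SE 0.15 each, limma adjusted p 5.9e-05 and 2.6e-04), and the plastid relative CLPB-C by 0.20 in raf-b2/3 (adjusted p 0.031) and 0.21 in WT (adjusted p 0.022). For scale beside CLPB-C, median-of-ratios scaling moved the median WT change of all tested loci from log2 0.0941 to 0.0032. BIP1, the HSP70 of the endoplasmic reticulum, where HSP23.2 also resides, rose by log2 0.79 in raf-b2/3 and 0.77 in WT (SE 0.09 each, adjusted p 1.4e-05 in both). The cytosolic HSP90 genes HSP81-1 and HSP81-2 rose by log2 0.40 and 0.24 in raf-b2/3 and by 0.35 and 0.33 in WT (limma adjusted p from 0.0027 to 0.030). HSP81-1 lost its call in raf-b2/3 without mannitol library 1 or control library 1, and in WT without mannitol library 1 or 3 or control library 2 (adjusted p of 0.061 to 0.12 over these 5 fits). Its WT call also ended without both libraries that stood apart (limma adjusted p 0.075), under median-of-ratios scaling (0.093) and under quantile normalization (0.056). Under mannitol HSP81-1 did not differ between genotypes by limma (log2 0.31, adjusted p 0.13). It passed as higher in raf-b2/3 without raf-b2/3 mannitol library 3 (log2 0.42, adjusted p 0.049) and without both libraries (log2 0.42, adjusted p 0.025). Other genes of the HSP70 and HSP90 families were not analysed here.

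Of 15 heat shock factor genes, 13 passed the filter on low values. All 13 rose in raf-b2/3, against 35.6% of all tested loci, while in WT 12 rose and 1 fell, against 37.7% and 25.5%. On the log2(FPKM + 1) scale HSFB1, a class B factor, had the largest rise, by log2 1.77 in raf-b2/3 and 1.58 in WT (SE 0.12 each, limma adjusted p 1.7e-07 and 2.7e-07). As a ratio of mean FPKM in raf-b2/3, HSFA4D, with lower levels, was higher (4.87) than HSFB1 (3.9). The factor that fell in WT was the class A factor HSFA2D, by log2 -0.69 (SE 0.18, adjusted p 0.0043), and under mannitol it was higher in raf-b2/3 than in WT by log2 1.06 (SE 0.18, adjusted p 0.0018). In raf-b2/3 HSFA2D rose by log2 0.46 (SE 0.18, adjusted p 0.039), and that call ended without raf-b2/3 mannitol library 1 (adjusted p 0.17) or 2 (0.069), or raf-b2/3 control library 1 (0.14) or 3 (0.13). The same call ended with no filter (limma adjusted p 0.054), under median-of-ratios scaling (0.059) or quantile normalization (0.083). In all, 3 factors were higher in raf-b2/3 than in WT under mannitol (8.37% of all tested loci) and 0 lower (7.47%), and 0 differed without mannitol (1.81%). HSFB1 also passed as higher under mannitol without raf-b2/3 mannitol library 3 (log2 0.35, limma adjusted p 0.0059). The same held without both libraries that stood apart (limma adjusted p 0.0066). The interaction passed for HSFA2D alone of the 13, and that call ended when any 1 of 9 libraries was left out.

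The authors' deposited table gives its own log2 fold changes with p-values, and it does not say whether those are adjusted. In that table the p-value was under 0.05 for 4 of the 9 genes in raf-b2/3 (HSP17.4, HSP17.7, HSP23.2 and HSP101) and for 3 in WT (HSP16.9B, HSP17.4 and HSP101). For HSP101 the authors' deposited table has log2 fold changes of 1.27 in raf-b2/3 (p 4.8e-07) and 1.69 in WT (p 1.0e-09). For HSP23.2 the authors' deposited table has -1.61 in raf-b2/3 (p 3.9e-07) and -0.43 in WT (p 0.36). For HSP16.9B and HSP24.1 in raf-b2/3 the p-values in the authors' deposited table are 0.10 and 0.0504.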

How the data were processed

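Strand-marking libraries were sequenced in pairs of 150 bases, as the design text states. One deposited table holds the authors' FPKM for 12 libraries, with their own group means, log2 fold changes and p-values. Per the submitters' processing notes, Trimmomatic, DESeq2, edgeR and the build IRGSP-1.0 were used, while aligner, annotation, versions and the treatment of multi-mapping reads are not given there or in the labels. Low FPKM values were whole multiples of 1 fragment, and fragments were recovered for all 29358 loci (tolerance 0.01 fragment), giving 37536545 to 39793707 per library. The FPKM were tested as log2(FPKM + 1) with limma-trend (limma 3.58.1, R 4.3.3), 1 mean per group, over 22371 loci at FPKM 1 or more in at least 3 libraries, with Benjamini-Hochberg adjustment. Intervals on fragments cover counting error only. Alternatives were another pseudocount (0.1), no filter, 2 other scalings, the replicate number as a block, limma-voom on recovered fragments, and libraries left out. The procedures were tested on simulated data.

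Gene names came from a hand-written list compared by name, chromosome and order with a table of reference genes (assembly ASM3414082v1). Start positions in it served to order genes along each chromosome, and no sequences are printed. All 9 genes are described. Of the other lists (small heat shock proteins, CLPB, HSP70, HSP90, heat shock factors), genes without a name in that table were left out, and the called genes with the largest rise and fall are named. Likeness names the 2 loci with the highest r and any listed gene in the first 100. The genes, lists and tests were chosen with earlier results of these data known. Seed markers (GLUA1, GLUA2, EMP1) summed to 3.65 to 4.74 FPKM in raf-b2/3 mannitol, 2.59 to 2.95 in raf-b2/3 control, 8.58 to 12.5 in WT mannitol and 2.77 to 3.20 in WT control.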

Additional observations from a re-analysis of the deposited data

Results flagged for a closer look

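The heat shock factor gene HSFA2D differed between genotypes in its mannitol response, with an interaction of log2 1.15 (SE 0.25, limma adjusted p 0.029). It stood at 17.5, 13.4 and 10.8 FPKM in raf-b2/3 mannitol, 8.20, 12.9 and 8.53 in raf-b2/3 control, 5.16, 6.90 and 6.13 in WT mannitol and 10.4, 10.8 and 9.93 in WT control. All 3 WT mannitol libraries lay below the WT control libraries, and the raf-b2/3 groups overlapped. The interaction kept its sign, at log2 0.98 to 1.34, when 1 library was left out, but its adjusted p was 0.051 to 0.091 without raf-b2/3 mannitol library 2, raf-b2/3 control library 1 or 3, or any 1 of the 6 WT libraries.

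EMP1, an embryo LEA gene used here as a seed marker, also differed between genotypes in its response, with an interaction of log2 -2.02 (SE 0.38, limma adjusted p 0.015). It stood at 0.424, 0.474 and 1.80 FPKM in raf-b2/3 mannitol, 0.0322, 0.0308 and 0.221 in raf-b2/3 control, 8.14, 9.65 and 5.36 in WT mannitol and 0.0962, 0.649 and 0.126 in WT control. The adjusted p was 0.21 with a pseudocount of 0.1, 0.57 with limma-voom on recovered fragments and 0.052 without WT mannitol library 1.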

How the results depend on the processing

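Over 19 alternatives, 36 of the 45 results (9 genes in 5 contrasts) kept their call in every one, 9 changed in at least 1, and 0 called values changed sign. The calls of HSP17.4, HSP101 and HSP23.2 in raf-b2/3 and of HSP16.9B, HSP17.4 and HSP101 in WT held in all 19. Of the 9 genes, 5 rose in raf-b2/3, and this count was 3 with no filter, 2 under median-of-ratios scaling, 2 under quantile normalization, 3 without WT control 2 and raf-b2/3 mannitol 3, and 2 to 6 with 1 library left out. In raf-b2/3 minus WT under mannitol 1 gene was higher; the count was 2 under median-of-ratios scaling, quantile normalization, limma-voom, the replicate block and without the 2 libraries, and 0 to 2 with 1 library left out. In WT 0 to 1 gene fell with 1 library left out. The cause of these changes was not tested.

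Over all tested loci, same-numbered libraries of different groups had deviations correlated by r -0.311 to 0.265 (18 pairs), and differently numbered ones by -0.276 to 0.327 (36 pairs). The labels do not say whether the numbers pair the libraries, and with 3 libraries per group these values cannot settle it. With the replicate block, the raf-b2/3 response of HSP16.9B had adjusted p 0.0525 and HSP24.1 in raf-b2/3 minus WT under mannitol 0.0471. The block changed no other call of these genes.

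Over all tested loci, the interaction had 228 higher and 438 lower. The higher count was 149 with a pseudocount of 0.1, 129 by limma-voom and 363 without the 2 libraries, and the lower count 238 by limma-voom. With 1 library left out, the ranges were 78 to 294 higher and 185 to 451 lower. In raf-b2/3 minus WT without mannitol, 272 loci were higher (177 without the 2 libraries), with ranges of 100 to 277 higher and 73 to 148 lower. Under mannitol the ranges were 1083 to 2096 higher and 965 to 1765 lower. Depth limits HSP26.7 most, with 9 fragments in its lowest library.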
